A study of Mus musculus with 14 samples.

Results

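Frame-shifting internal exons were followed in C2C12, an established line of mouse muscle precursor cells, after depletion of isoforms of the RNA-binding protein Quaking (Qk). The members are exon bins of the authors' longer splicing table that are neither the first nor the last numbered bin of their gene, are separated by a gap from the bins on both sides, are at most 200 nt long, and have a length that is not divisible by 3. A bin is a stretch of exon that the transcripts of a gene use or skip as 1 piece. The rule found 1271 such bins in 206 genes, out of 4019 bins in 228 genes. The study's labels give Qk5 depletion, Qk6/7 depletion and control, each by transient transfection of small interfering RNA into the same line and with 3 replicates, and pan-Qk depletion with 1 replicate that is not analysed here. Cells were grown in high-glucose DMEM with serum, RNA was depleted of ribosomal RNA before sequencing, and nothing in the labels says that replicates were separate cultures, so the deposited p-values may measure technical spread. The table gives no value per replicate: the depth behind each value is unknown, no SD can be given, and whether single samples of the groups overlap cannot be seen.

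Quaking is a member of the STAR family of RNA-binding proteins and recognises sites built around ACUAA. Its Qk5 isoform is mainly nuclear and is known to regulate splicing from sites in the introns beside an exon, while Qk6 and Qk7 are found largely in the cytoplasm. An internal exon whose length is not a multiple of a codon changes the reading frame of everything downstream when it is skipped. Such exons are therefore alternative mostly in particular settings: as pairs of which a transcript takes one, near the end of the coding sequence where the change alters only the last residues, or as exons whose inclusion brings a stop codon that exposes the RNA to nonsense-mediated decay.

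Bins were compared with annotated mouse exons without carrying any coordinate between builds. A bin was matched to an exon of the same gene in GENCODE M21 (GRCm38) when the lengths were identical and the distances to neighbouring exons were the same on both sides (1156 bins) or on 1 side with a single candidate (46 bins), together 94.6% of the members. Of the 18 members that passed the authors' test, 14 were matched. The sequences that follow belong to called members whose effect on the reading frame is described here, and to the uncalled partner exons in Rab6 and Pkm2. They are written 5′ to 3′ on the strand of the gene, from the GENCODE M21 transcripts.

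In Tpm2, which encodes beta-tropomyosin, bins E007 and E006 are neighbouring exons of 76 nt each, and the capitals mark the 35 positions at which they differ. E007 lies at chr4:43519003-43519078 and E006 at chr4:43518644-43518719 (GRCm38, minus strand), so E007 is the upstream copy.
Tpm2 E007: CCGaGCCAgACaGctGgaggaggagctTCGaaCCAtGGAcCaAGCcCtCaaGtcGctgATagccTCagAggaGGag
Tpm2 E006: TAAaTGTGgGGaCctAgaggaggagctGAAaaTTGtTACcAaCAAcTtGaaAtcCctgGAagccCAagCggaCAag

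In Rab6 (Rab6a in GENCODE), which encodes a GTPase of the Golgi apparatus, E004 and E005 are neighbouring exons of 106 nt each, 66 nt apart, and the capitals mark the 30 positions at which they differ. E004 lies at chr7:100629666-100629771 and E005 at chr7:100629838-100629943 (GRCm38, plus strand).
Rab6 E004: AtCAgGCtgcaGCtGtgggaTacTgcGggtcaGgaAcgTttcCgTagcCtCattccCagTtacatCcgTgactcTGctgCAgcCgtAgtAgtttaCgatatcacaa
Rab6 E005: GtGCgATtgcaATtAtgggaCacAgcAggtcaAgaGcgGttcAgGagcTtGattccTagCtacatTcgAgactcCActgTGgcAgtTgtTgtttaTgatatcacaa

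In Pkm2 (Pkm in GENCODE), the pyruvate kinase gene, the bin E011 is 46 nt long and matched no exon of that length. Its distances to E010 and to the start of E012 placed it at the first 46 nt of a 167-nt exon of transcript Pkm-202, with 121 nt of that exon outside the bin. E012, of 167 nt, is the neighbouring exon. The capitals mark the 13 of 46 positions that differ between E011, at chr9:59675029-59675074, and the start of E012, at chr9:59675568-59675613 (GRCm38, plus strand).
Pkm2 E011: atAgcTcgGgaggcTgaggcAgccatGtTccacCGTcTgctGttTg
Pkm2 E012: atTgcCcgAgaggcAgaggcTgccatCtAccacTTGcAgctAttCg

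In Mtfr1, a mitochondrial fission regulator, and Serp2, a stress-associated endoplasmic reticulum protein, the member exon occurs in GENCODE only in a transcript classed as a target of nonsense-mediated decay. The first 30 nt of each are shown, with the stop codon that comes into frame on inclusion in capitals. They lie at chr3:19208491-19208520 (plus strand) and chr14:76540025-76540054 (minus strand) in GRCm38.
Mtfr1 E007: TAGctttaacaggacaggaccttcctacaa
Serp2 E002: gtTGActacataaatactggcttttcctgg

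In Capzb, the beta subunit of the actin capping protein, E012 holds the stop codon of transcript Capzb-203. Its coding part of 103 nt lies at chr4:139288861-139288963 (GRCm38, plus strand) and ends with the stop codon in capitals.
Capzb E012: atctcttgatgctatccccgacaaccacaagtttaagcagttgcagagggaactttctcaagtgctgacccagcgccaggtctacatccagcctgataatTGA

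The authors tested exon use with DEXSeq, which asks whether a bin's share of its gene's reads differs among the 3 conditions together. A bin therefore has 1 p-value, and its log2 fold in either depletion is not tested on its own. Of the 1271 members 1206 had an adjusted p, and 18 in 17 genes were called at an adjusted p under 0.05, beside 6.18% of all bins of the table with an adjusted p. The share among the members was 1.49%. At an adjusted p under 0.01 there were 12 members, beside 4.20% of all tested bins, and under 0.1 there were 22, beside 7.44%. At an adjusted p under 0.05 the share was 2.70% among frame-preserving internal exons of up to 200 nt (27 of 999). It was 13.1% among separate internal bins over 200 nt (51 of 389) and 8.67% among internal bins that abut a neighbour (63 of 727). First and last bins stood at 17.3% (72 of 416). These shares are given without a test. A gene is in the table because 1 of its bins passed an adjusted p of 0.1, so they describe chosen genes. Recomputing the adjustment from the deposited values placed the number of bins the authors tested near 142000, of which the 231 called are 0.163%.

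**Figure D1:**
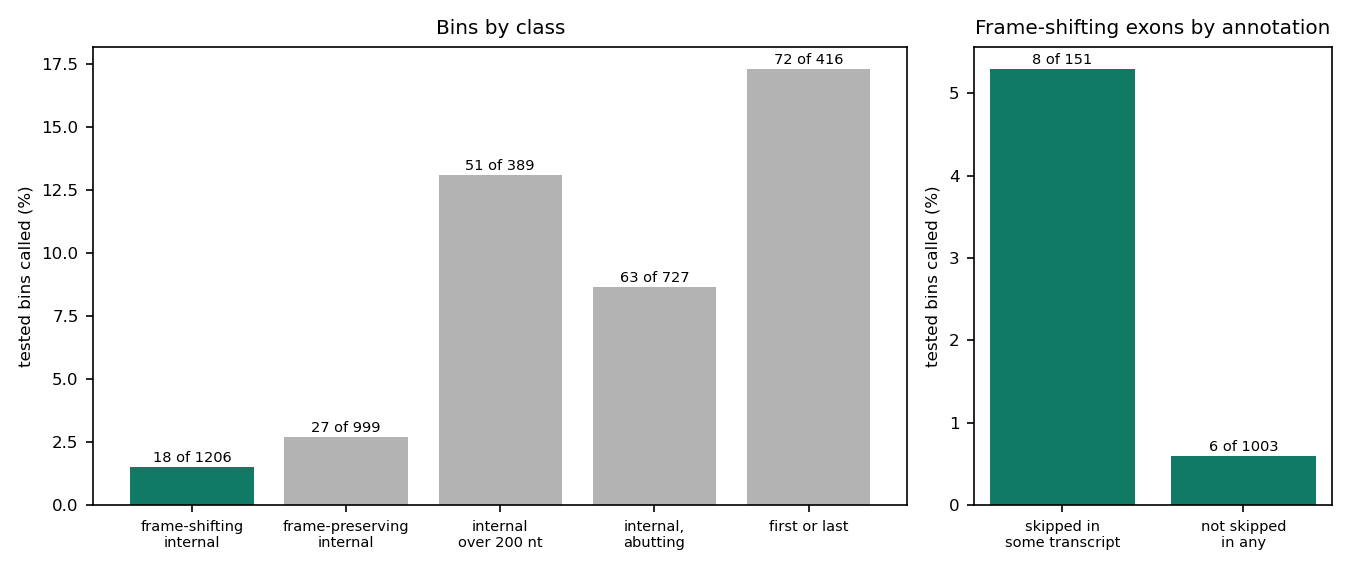
Share of tested bins called at the authors' adjusted p under 0.05, in percent, by bin class (left) and, among frame-shifting internal exons matched to an annotated exon, by whether some GENCODE transcript skips the exon (right); numbers above the bars are called of tested bins. The frame-shifting class has the lowest bar of the 5 classes at 1.49%, and within it exons with an annotated skipping transcript stand at 5.30% and the others at 0.598%.

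The called members were used less more often than used more in Qk5 depletion, with 14 used less (1.16% of tested members, beside 2.97% of all tested bins) and 4 used more (0.332%, beside 3.10%) than in control. In Qk6/7 depletion 10 were used less (0.829%, beside 3.61%), 7 were used more (0.580%, beside 2.52%) and 1 stood at a log2 fold of 0. These counts take the sign of a fold of any size. The smallest negative folds were -0.03, for AK017143 E004 in Qk5 depletion and for Tpm2 E007 in Qk6/7 depletion. Of the members at 0.5 or more in size in Qk6/7 depletion, Rab6 E004 and Ttll5 E036 were used less. Tpm3 E012, Capzb E012 and AK017143 E004 were used more. The median log2 fold of the called members was -0.34 in Qk5 depletion and -0.04 in Qk6/7 depletion, against 0.01 and -0.07 for all called bins. In size the fold was larger in Qk5 depletion for 13 of the 18 and larger in Qk6/7 depletion for 5. Among all 231 called bins it was larger in Qk5 depletion for 150 and in Qk6/7 depletion for 79. For the 27 called frame-preserving exons these counts were 24 and 3, so the larger size in Qk5 depletion was not particular to the members. An absolute log2 fold of at least 0.5 was reached in Qk5 depletion alone by 10 members, in Qk6/7 depletion alone by 3, in both by 2 and in neither by 3. The comparisons share their control samples.

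**Figure D2:**
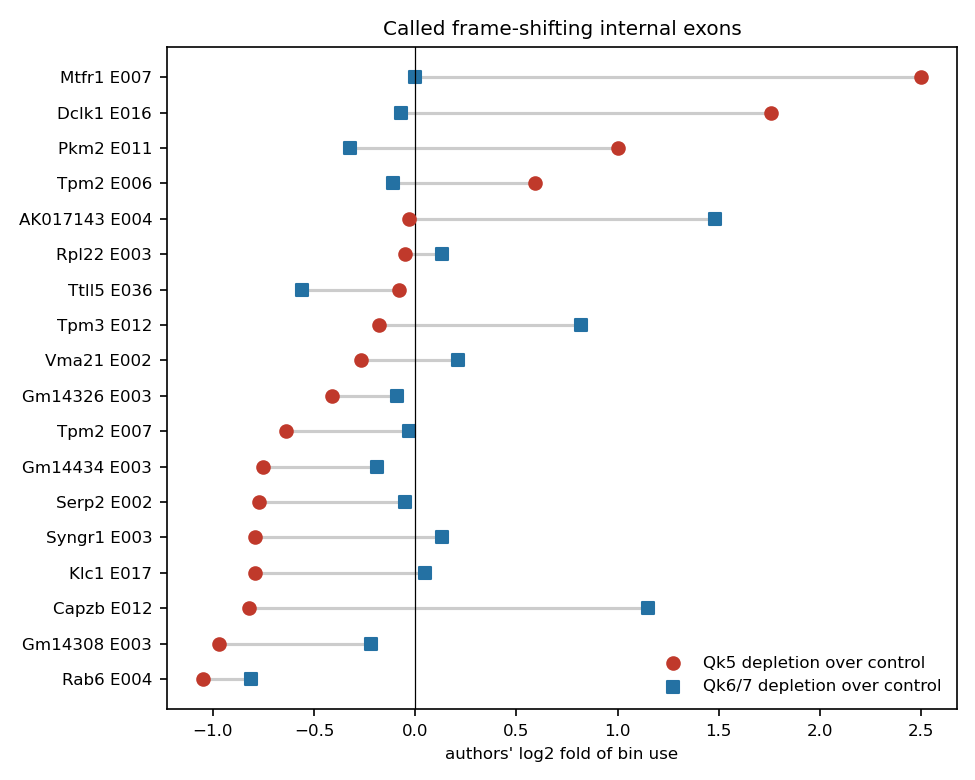
Deposited log2 fold of bin use over control (horizontal axis) of the 18 called members, with Qk5 depletion as circles and Qk6/7 depletion as squares joined by a line. Values run in Qk5 depletion between -1.05 for Rab6 E004 and 2.50 for Mtfr1 E007. Folds of opposite sign in the 2 depletions are held by 10 of the 18 members, beside 118 of all 231 called bins. The signs are taken at any size, down to -0.03 for AK017143 E004 in Qk5 depletion.

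The 4 called exons used more in Qk5 depletion lay in Mtfr1, Dclk1, Pkm2 and Tpm2. Mtfr1 E007 (chr3:19108491-19108527, mm9) had the largest value, with a deposited log2 fold of 2.50 in Qk5 depletion, or 5.66-fold, and of 0.00 in Qk6/7 depletion (the authors' DEXSeq adjusted p = 1.83e-05). The 8 other tested bins of Mtfr1 lay between -0.29 and 0.13 in Qk5 depletion in the authors' deposited table, so no other bin of the gene came near this 37-nt exon. Placed into the coding transcript Mtfr1-202, the exon ended translation after 55 codons in place of 328. That stop lay 787 nt upstream of the last exon junction, beyond the 50 nt by which stops that trigger decay are usually recognised.

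Serp2 E002 (chr14:76939713-76939861, mm9), the second exon of this kind, stood on the other side. Its deposited log2 fold was -0.77 in Qk5 depletion and -0.05 in Qk6/7 depletion (the authors' DEXSeq adjusted p = 8.53e-05). Each of the 5 other tested bins of Serp2 had a positive log2 fold in Qk5 depletion in the authors' deposited table, between 0.25 and 0.68. Placed into Serp2-201 the exon ended translation after 53 codons in place of 65, with the stop 144 nt upstream of the last junction. The deposited gene-level table, which holds genes with an adjusted p under 0.1, lists neither gene. In GENCODE, 11 members occur in a decay-class transcript and otherwise at most in transcripts without a coding class (retained intron or processed transcript). Of these 11, 6 had an adjusted p and these 2 were called, where 1.49% of all tested members were called. The other 4 tested ones, Zdhhc3 E010 and Adamts6 E012, E023 and E024, had log2 folds between -0.14 and -0.01 in Qk5 depletion and an adjusted p of 1 in the authors' deposited table.

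Pairs of exons of which a transcript takes one gave the clearest reciprocal pattern in Tpm2. In Qk5 depletion the downstream copy E006 (chr4:43531516-43531591, mm9) had a deposited log2 fold of 0.59 and the upstream copy E007 (chr4:43531875-43531950, mm9) one of -0.64 (the authors' DEXSeq adjusted p = 0.000253 for E006 and 0.000192 for E007). In Qk6/7 depletion the deposited values were -0.11 for E006 and -0.03 for E007. Both lay outside the range of the gene's other tested bins in Qk5 depletion, each of which stood between -0.26 and 0.09. GENCODE places E006 in Tpm2-202 and E007 in Tpm2-201, each as exon 6 of 9 and each giving 284 codons, so exchanging one for the other keeps the frame. In the rat gene the upstream copy is known from fibroblasts and smooth muscle and the downstream copy from skeletal muscle.

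Neighbouring members of equal length occurred 9 times, in 9 genes, and the pair in Tpm2 was the 1 pair with both exons called. The corresponding 76-nt pairs in the other tropomyosin genes had an adjusted p of 1 in the authors' deposited table. There the deposited log2 folds in Qk5 depletion were 0.05 and -0.73 for E008 and E009 of Tpm3, and 0.04 and 0.32 for E008 and E009 of Tpm1. The pair of Tpm2 was identical at 53.9% of positions, that of Tpm1 at 56.6% and that of Tpm3 at 51.3%.

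Rab6 held the second equal-length pair with a called exon. E004 (chr7:107778180-107778285, mm9) was used less in both depletions, with deposited log2 folds of -1.05 in Qk5 and -0.81 in Qk6/7 depletion (the authors' DEXSeq adjusted p = 0.0133), the 1 called member that reached an absolute value of 0.5 downward in both. The partner E005 had deposited values of 0.08 and 0.12 and an adjusted p of 1. The other 8 tested bins of Rab6, E005 included, lay between -0.10 and 0.10 in Qk5 depletion and between -0.14 and 0.12 in Qk6/7 depletion, by the authors' deposited table. These exons yield the forms known as Rab6A and Rab6A′, which differ in a few residues. They were identical at 71.7% of positions with no shared run above 10 nt.

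The bin in Pkm2 covers the start of the exon that marks the M1 form of pyruvate kinase, the form of differentiated muscle, while E012 marks the M2 form of proliferating cells. E011 (chr9:59522836-59522881, mm9) had a deposited log2 fold of 1.00 in Qk5 depletion and of -0.32 in Qk6/7 depletion, with the lowest adjusted p of all members (the authors' DEXSeq adjusted p = 1.63e-05). E012 had deposited values of -0.18 in Qk5 depletion and 0.00 in Qk6/7 depletion and an adjusted p of 1. The full exon of 167 nt is also no multiple of 3, so the place of Pkm2 among frame-shifting exons does not depend on the bin's short length.

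Markers of differentiated muscle were higher in Qk5 depletion, where Pkm2 E011 and Tpm2 E006 were used more. Of Myog, Acta1, Mb, Myh3 and Ckm, 5 of 5 were higher in Qk5 depletion by the authors' DESeq test in the deposited gene-level table, with folds between 2.54 and 5.32, and none passed it in Qk6/7 depletion, with folds between 1.07 and 1.61. Of the fibroblast markers, Dcn was higher in Qk5 depletion at 2.95-fold (DESeq adjusted p of the authors = 3.25e-10) and Col1a1 stood at 1.84-fold (adjusted p = 0.0534) in the deposited table. Of the genes of undifferentiated myoblasts, Myf5 was higher at 1.88-fold (the authors' DESeq adjusted p = 0.00586) and Id1 lower at 0.564-fold (adjusted p = 0.0207) in Qk6/7 depletion in the deposited table. In Qk5 depletion Myf5 stood at 1.20-fold and Id1 at 0.981-fold, and neither passed the authors' test. In Qk6/7 depletion Dcn stood at 0.916-fold and Col1a1 at 1.18-fold, and neither passed it. The part of these shifts in the exon values was not tested. Qk itself had a deposited mean of 3267 normalized counts in Qk5 depletion, 5271 in Qk6/7 depletion and 5875 in control for all its isoforms together, and the splicing table holds 0 of its bins, so depletion of single isoforms was not checked.

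**Figure D3:**
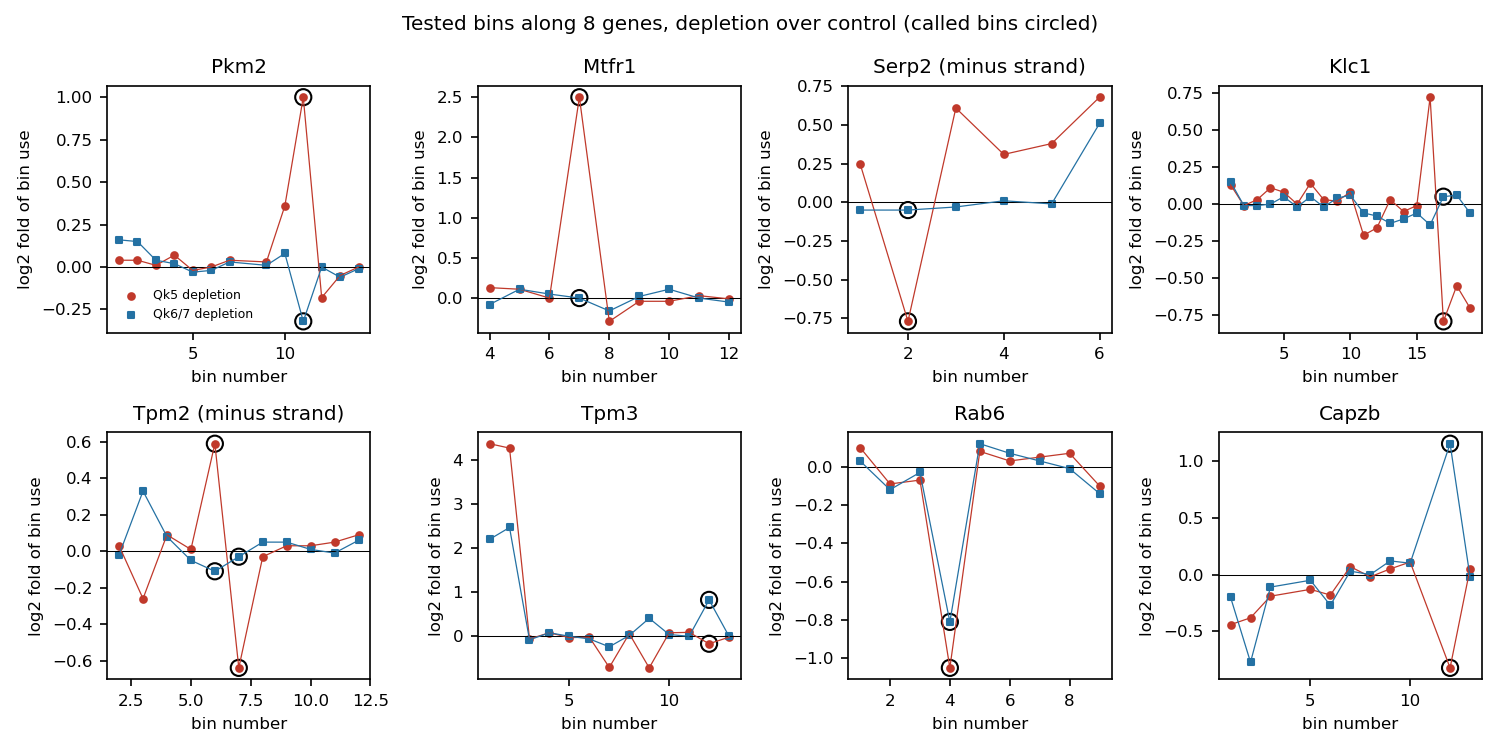
Deposited log2 fold of bin use over control (vertical axis) of each tested bin against its number along 8 genes, with Qk5 depletion as circles, Qk6/7 depletion as squares and called bins ringed; numbers run with the genome, so Serp2 and Tpm2 read from right to left. In Mtfr1, Pkm2 and Rab6 a single bin departs from a near-flat gene, in Tpm2 neighbouring bins part in opposite directions, and in Klc1 bin 16 lies above and the bins after it below the rest.

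Exons near the end of the coding sequence formed another group. Capzb E012 (chr4:138844776-138844888, mm9), a reported Quaking target, was the called member whose folds were largest on opposite sides: the deposited log2 fold was -0.82 in Qk5 depletion and 1.15 in Qk6/7 depletion (the authors' DEXSeq adjusted p = 0.0392). That is 0.566-fold and 2.22-fold of control. The 10 other tested bins of Capzb lay between -0.44 and 0.11 in Qk5 depletion and between -0.77 and 0.12 in Qk6/7 depletion, as the authors' deposited table gives them. With the exon, Capzb-203 encodes 277 codons and ends inside it. Placed into Capzb-201, which skips the exon and has 301 codons, it ended translation after 306 codons, with the stop 10 nt upstream of the last junction. The bin's deposited dispersion, 0.0284, was the highest of the called members, beside a median of 0.00101 for all tested members.

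Tpm3 E012 (chr3:89894935-89895013, mm9), of 79 nt, was used more in Qk6/7 depletion, at a deposited log2 fold of 0.82, and stood at -0.18 in Qk5 depletion (the authors' DEXSeq adjusted p = 0.000212). Tpm3 encodes the tropomyosin of slow muscle and short nonmuscle forms. The bin was not outside the range of the gene's other tested bins: the first bins E001 and E002 had deposited log2 folds of 4.38 and 4.28 in Qk5 depletion and of 2.2 and 2.47 in Qk6/7 depletion, with an adjusted p of 0.0537 and 0.0946. The last bin, E013, lay at -0.03 in Qk5 depletion and -0.01 in Qk6/7 depletion, as the authors' deposited table gives them. Translation through E012 in Tpm3-205 gave 284 codons. Placed into Tpm3-204, which skips it and has 285 codons, the exon left the length at 285 codons and changed the last ones.

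Klc1 E017 (chr12:113033759-113033889, mm9), in the kinesin light chain that links cargo to the motor, had a deposited log2 fold of -0.79 in Qk5 depletion and 0.05 in Qk6/7 depletion (the authors' DEXSeq adjusted p = 0.000165). The bins after it, E018 and E019, lay at -0.55 and -0.70 in Qk5 depletion, and the 563-nt bin before it, E016, at 0.72 with an adjusted p of 0.0985, in the authors' deposited table. E018 and E019 had an adjusted p of 1. The values were thus negative at E017 and the bins after it, with the call at E017 alone. E017 is exon 14 of 16 in Klc1-201, and its removal would end translation after 569 of 616 codons, with the stop 7 nt upstream of the last junction.

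Of the 18 called members, 9 were the only called bin of their gene and 9 had company, and 12 had the lowest adjusted p of their gene. Dclk1 E016 (chr3:55303957-55304090, mm9), in a kinase that binds microtubules, had a deposited log2 fold of 1.76 in Qk5 depletion and -0.07 in Qk6/7 depletion (the authors' DEXSeq adjusted p = 0.00225). The neighbours E015 and E017 stood at 1.89 and 1.65 in Qk5 depletion and the gene had 5 called bins in the authors' deposited table. The bins E001 to E008 had negative values there, down to -1.13, and the tested bins from E009 on had positive ones, so E016 lay within a longer stretch of one sign. GENCODE has no transcript that skips it.

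Syngr1 E003 (chr15:79942029-79942174, mm9), in a vesicle membrane protein, had a deposited log2 fold of -0.79 in Qk5 depletion and 0.13 in Qk6/7 depletion (the authors' DEXSeq adjusted p = 0.0358). The neighbours E002 and E004 stood at -0.60 and -1.08, and the last bin E005 at 2.30 in Qk5 depletion in the authors' deposited table, all of them called. The exon thus had the sign of its neighbours, opposite to that of the last bin. In Vma21, an assembly factor of the proton pump of acidic compartments, all 3 bins were called. Vma21 E002 (chrX:69065407-69065516, mm9) had deposited log2 folds of -0.27 in Qk5 depletion and 0.21 in Qk6/7 depletion (the authors' DEXSeq adjusted p = 0.000258), with the last bin E003 at 0.19 and -0.14.

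Rpl22 E003 (chr4:151704113-151704237, mm9), in a ribosomal protein gene, was the called member whose larger fold was smallest in size, with deposited log2 folds of -0.05 in Qk5 depletion and 0.13 in Qk6/7 depletion (the authors' DEXSeq adjusted p = 0.0255). Its last bin E004 was called as well, at 0.13 and -0.15 in the authors' deposited table. The transcript that the table names AK017143 had E004 (chr5:22890800-22890990, mm9) at a deposited log2 fold of -0.03 in Qk5 depletion and 1.48 in Qk6/7 depletion (the authors' DEXSeq adjusted p = 0.00259), the highest value of a called member in Qk6/7 depletion. The neighbours E003 and E005 had deposited values of 1.94 and 1.07 there, and 4 bins of the gene were called. Ttll5 E036 (chr12:87336951-87337146, mm9), in a tubulin glutamylase, had deposited log2 folds of -0.08 in Qk5 depletion and -0.56 in Qk6/7 depletion (the authors' DEXSeq adjusted p = 0.0128), and was the only called bin of 43 in its gene. The tested bins after it, E037 to E041, were negative in Qk6/7 depletion too, between -0.43 and -0.10. Those before it were not negative there, apart from E020 at -0.91. E036 thus began a stretch of one sign.

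A layout in which a member of 127 nt lies between members of 55 and 61 nt occurred in 9 gene IDs of the table, all on chromosome 2, and the 127-nt exon was called in 3 of them, Gm14308, Gm14434 and Gm14326. The symbol Gm14308 stands for 3 gene IDs, and the values given for it are those of the called one. The deposited log2 folds of the 127-nt exon in Qk5 depletion were -0.97 in Gm14308 (chr2:175747696-175747822, mm9), -0.75 in Gm14434 (chr2:176277385-176277511) and -0.41 in Gm14326 (chr2:177683142-177683268). In Qk6/7 depletion the deposited values were -0.22, -0.19 and -0.09 in the same order, with the authors' DEXSeq adjusted p at 0.0122, 0.00709 and 0.00508. The 127-nt exons of the 6 gene IDs without a call had negative values in Qk5 depletion too, between -0.85 and -0.43, with the lowest adjusted p at 0.0735, in the authors' deposited table. The 55-nt and 61-nt exons of each called gene also had negative values in Qk5 depletion in the authors' deposited table and were not called. The longest bin of each called gene was positive in Qk5 depletion. Its deposited log2 fold was 0.42 for Gm14308 E005, 0.53 for Gm14434 E005 and 0.51 for Gm14326 E001. Of these, Gm14308 E005 and Gm14326 E001 were called (the authors' DEXSeq adjusted p = 1.29e-06 and 0.035). The negative sign was thus not particular to the 127-nt exon. At the gene level all 3 called gene IDs were higher in Qk5 depletion, at 2.09-fold for Gm14308, 2.21-fold for Gm14434 and 1.80-fold for Gm14326 (the authors' DESeq adjusted p = 0.0025, 0.000873 and 0.00394 in the deposited table). Whether reads were split among copies of these genes was not tested.

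**Figure D4:**
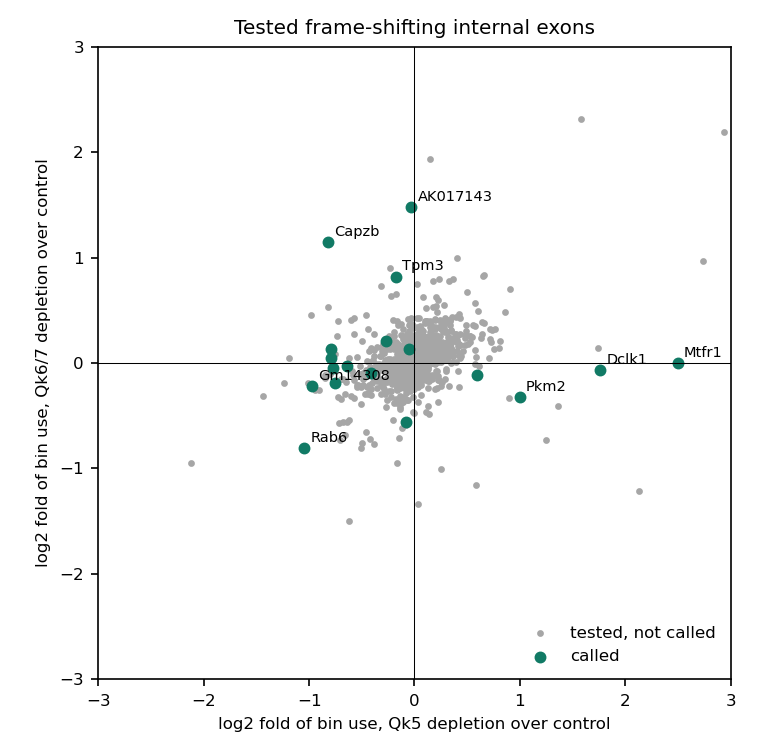
Deposited log2 fold of bin use in Qk5 depletion (horizontal) against Qk6/7 depletion (vertical), both over control, for tested frame-shifting internal exons, with the 18 called ones as large points and labels for those of at least 0.8 in size in either. Called exons spread along the horizontal axis on both sides, Capzb lies in the upper left and Rab6 in the lower left, and 1 uncalled exon lies outside the axes.

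The remaining 1188 tested members had no call, and 1161 members carried an adjusted p of 1. The middle 90 percent of the uncalled ones lay between -0.46 and 0.41 on the log2 scale in Qk5 depletion and between -0.29 and 0.38 in Qk6/7 depletion. Another 89 members had an unadjusted p under 0.05 without a call. Just outside the threshold, with an adjusted p between 0.05 and 0.1, were 4 members: Gsn E005, Gm14391 E004, Nfkb1 E027 and Gpr137b E003. Gsn, which severs actin filaments, stood at deposited log2 folds of -0.82 in Qk5 depletion and 0.53 in Qk6/7 depletion, and Nfkb1 at 0.75 and 0.13. Just inside stood Capzb and Syngr1. Very large folds, above 5 in size on the log2 scale, appeared in 24 members, of which 1, Wwc1 E020, had an adjusted p at all (12.80 and 13.31, adjusted p = 1, in the authors' deposited table).

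Among matched and tested members, 151 are skipped by some GENCODE transcript and 1003 are not. Of the 151, 8 were called (5.30%): Mtfr1 E007, Serp2 E002, Klc1 E017, both Tpm2 exons, Tpm3 E012, Rab6 E004 and Capzb E012. Of the 1003, 6 were called (0.598%): Dclk1 E016, Syngr1 E003, Vma21 E002, Rpl22 E003, Ttll5 E036 and Gm14326 E003. A median absolute log2 fold of 0.14 in Qk5 depletion for the first set stood beside 0.10 for the second. The sets are described and were not tested.

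In 11 of the 14 matched called members the exon lay wholly within the coding sequence, against 1061 of the 1140 matched members without a call (93.1%). Removing such an exon placed a stop more than 50 nt upstream of the last junction for 5 of the 11 called (45.5%), which were both Tpm2 exons, Rab6 E004, Dclk1 E016 and Ttll5 E036, and for 88.3% of the 1061 uncalled. The removal put nothing in the exon's place. Both Tpm2 exons and Rab6 E004 have a partner of equal length that other transcripts take instead. For these exons the stop applies only where the partner is left out as well. GENCODE has no transcript that skips Dclk1 E016 or Ttll5 E036, and Dclk1 E016 was used more in Qk5 depletion. Whether any of the 5 exons is removed alone in these cells was not tested. The letters ACTAA, the DNA form of the core that Quaking recognises, occurred on the sense strand in 0 of 14 called exons and in 5.09% of the uncalled, and the reverse complement TTAGT in 1 of 14 and in 3.68%. Only the exons themselves were searched, and introns, where such sites are mostly reported, were not analysed here.

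The gene lists were read beside the 1.49% called among all tested members. Of the 28 reported Quaking RNA targets 5 genes had members, with 1 of 26 tested members called (3.85%), Capzb E012. The actin cytoskeleton and adhesion list had 4 of 123 called (3.25%), the Tpm2 pair, Tpm3 E012 and Capzb E012, of which 1 was used more and 3 were used less in Qk5 depletion. The microtubule and vesicle list had 2 of 86 called (2.33%), Dclk1 E016 used more and Klc1 E017 used less. The RNA-binding factors had 0 of 22 tested members called by the authors' DEXSeq test and the kinases, phosphatases and GTPase regulators 0 of 69. An unadjusted p under 0.05 was held by 1 tested member of the Quaking targets, 9 of the actin list, 17 of the microtubule list, 0 of the RNA-binding factors and 3 of the kinases, beside 105 of all 1206 tested members (8.71%). The transcription and chromatin list had no gene in the table. Median log2 folds of the tested members of these lists lay between -0.025 and 0.03 in Qk5 depletion, beside 0.00 for all tested bins.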

How the data were processed

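The tools named per the submitters' processing notes are TopHat2 and Bowtie2, SAMtools, bedtools and DESeq, and the build is mm9. No versions are stated. For read counting, strand and the joining of the runs of replicate 1, details were not given in the sources used here. Among the files, the authors' deposited splicing table gives, per the file headers, a log2 fold of bin use per comparison, 1 DEXSeq p-value for the 3 conditions with its adjusted value, and a dispersion score per bin. The authors' deposited gene-level table gives mean normalized signal (counts divided by size factors), its fold ratio and log2, a DESeq p-value and a direction score. Here, bins were classed by position and length, called at an adjusted p under 0.05, counted, and matched to GENCODE M21 exons by length and distances with Python 3.11.15 and pandas 2.3.3. Nothing was refitted, since no table holds values per replicate. The bin rule, the recovery of the number tested and the stop-codon search were tested on simulated data. Every called member is named with its values. The members, lists and markers were chosen with earlier results of these data known. Depth is unknown.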

Additional observations from a re-analysis of the deposited data

How the results depend on the processing

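The count of called members was 18, and it was 12 at an adjusted p under 0.01, 22 under 0.1, 16 with a length limit of 150 nt, 18 with bins of at least 28 nt only, and 17 with at most 1 member per gene. Under 2 alternatives added after the data were seen it was 14 with only bins matched to an annotated exon and 15 without the chromosome 2 predicted genes. The share used more was 22.2% in Qk5 depletion, with a range of 17.6% to 33.3% over the adjusted p limits and 1 member per gene, and 38.9% in Qk6/7 depletion, with a range of 33.3% to 50%. The median log2 fold of the called members in Qk6/7 depletion changed sign at an adjusted p under 0.1, to 0.005, against -0.04 at 0.05, through the 4 members that enter there. The fold was larger in size in Qk5 depletion for 72.2% of called members, and for 70.6% to 83.3% under alternatives added after the data were seen. Beside this, it was larger there for 150 of all 231 called bins. Each gene ID carries 1 symbol, so leaving out joined genes was not run, and the count of ACTAA in flanking introns was not run because the reference used here holds transcripts and no genome. No paired analysis was possible because the tables hold no value per replicate, which also bars leaving out a replicate.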
